A study of Mus musculus with 96 samples.

Results

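The genes described here are 10 transcriptional regulators of drug and bile acid handling in mouse liver: Nr1i3 (CAR), Nr1i2 (PXR), Rxra, Nr1h4 (FXR), Nr0b2 (SHP), Nr1h3 (LXR alpha), Hnf4a, Nr5a2 (LRH-1), Ahr and Esr1. They were chosen by name, and all 10 had a row among the 47373 genes of the count table and passed the low-count filter in every comparison. Of these, 9 are nuclear receptors. Ahr, a basic helix-loop-helix receptor outside that family, stands beside them as the other classical sensor of foreign compounds.

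On GRCm38, Nr1i3 lies on chromosome 1 (171213970 to 171220701, plus strand), Nr1i2 on 16 (38248323 to 38294824, minus), Rxra on 2 (27676440 to 27762957, plus), Hnf4a on 2 (163506808 to 163572910, plus) and Ahr on 12 (35497974 to 35535038, minus).

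The livers came from 12 male B6C3F1 mice aged 10 to 11 weeks. Phenobarbital (PB) was given to 6 of them in drinking water at 600 ppm for 7 days, and the 6 controls (Con) drank water with 0 ppm. Mixed pieces of several lobes were frozen from every mouse and then divided, so the 8 libraries of a mouse come from portions of a single liver. The 8 preservation states were frozen tissue; ethanol (70% for 3 months); formalin 18 h (10% formalin for 18 hours, then 70% ethanol up to 3 months); formalin 3 mo (10% formalin for 3 months); and 4 repair treatments of 3-month formalin material. These were TAE (isolated RNA heated in 1X Tris-acetate-EDTA at 70 °C for 30 minutes), heat only (18 hours at 55 °C during isolation with the AllPrep kit), catalyst AllPrep (the same with an organocatalyst) and catalyst PureLink (the organocatalyst with the PureLink kit). All states but frozen passed through paraffin. The ribosomal-RNA-depleted libraries gave 96 columns of counts, with 6 libraries in each of the 16 groups. RNA from frozen liver was isolated with RNAzol RT and an RNeasy column, so preservation and the way RNA was isolated cannot be told apart in comparisons with frozen tissue. The 2 catalyst states also differ in their kit.

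CAR and PXR are ligand-sensing nuclear receptors that pair with RXR and switch on cytochrome P450, conjugation and transporter genes when foreign compounds enter the hepatocyte. In mouse liver phenobarbital is known to activate CAR indirectly, by dampening EGF receptor signalling so that dephosphorylated CAR leaves the cytoplasm. FXR and LXR alpha also pair with RXR, and sense bile acids and oxysterols. SHP is an FXR-induced repressor without a DNA-binding domain, and HNF4A and LRH-1 hold up the basal hepatocyte programme.

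Receptors that pair with RXR bind repeats of a hexamer related to AGGTCA, so the 300-base windows from 250 bases before to 50 after each RefSeq start (GRCm38.p6) were searched for AGGTCA and AGTTCA on both strands. Windows were found for 9 of the 10 genes, 14 in all. None was found for Ahr, so its promoter was not searched. At least 1 of the 2 hexamers was present in 27.7% of 32544 mouse promoters (AGGTCA in 16.2%, AGTTCA in 14.0%). Among these receptor genes AGGTCA occurred 2 times at the second start of Rxra, once at Nr1h4 and once at 1 of 2 starts of Nr5a2, and AGTTCA at none. The windows below are those of the 2 xenobiotic sensors, of their partner Rxra at the start that held both AGGTCA matches, and of Hnf4a at its downstream start, because the results turn on these genes. AGGTCA matches on either strand are in capitals. They are printed 5′ to 3′ on the gene's strand: Nr1i3 chr1:171213720-171214019 (plus strand), Nr1i2 chr16:38294775-38295074 (minus strand), Rxra chr2:27709042-27709341 (plus strand) and Hnf4a chr2:163546905-163547204 (plus strand).
Nr1i3 promoter: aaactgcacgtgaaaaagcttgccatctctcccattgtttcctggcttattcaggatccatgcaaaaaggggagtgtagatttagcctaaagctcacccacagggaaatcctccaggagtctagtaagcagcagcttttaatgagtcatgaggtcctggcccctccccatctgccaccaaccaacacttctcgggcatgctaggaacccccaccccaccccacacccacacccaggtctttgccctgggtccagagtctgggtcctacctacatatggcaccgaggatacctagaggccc
Nr1i2 promoter: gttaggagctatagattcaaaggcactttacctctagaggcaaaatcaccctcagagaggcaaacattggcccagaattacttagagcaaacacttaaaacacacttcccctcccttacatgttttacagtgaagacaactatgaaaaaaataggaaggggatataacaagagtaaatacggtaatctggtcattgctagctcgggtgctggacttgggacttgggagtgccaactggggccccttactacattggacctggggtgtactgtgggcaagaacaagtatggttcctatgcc
Rxra second promoter: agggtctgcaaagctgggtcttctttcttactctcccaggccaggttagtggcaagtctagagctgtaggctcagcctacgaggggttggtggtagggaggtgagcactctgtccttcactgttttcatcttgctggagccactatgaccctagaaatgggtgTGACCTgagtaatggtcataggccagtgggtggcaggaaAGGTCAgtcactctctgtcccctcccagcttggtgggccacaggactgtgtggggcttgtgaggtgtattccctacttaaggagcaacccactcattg
Hnf4a downstream promoter: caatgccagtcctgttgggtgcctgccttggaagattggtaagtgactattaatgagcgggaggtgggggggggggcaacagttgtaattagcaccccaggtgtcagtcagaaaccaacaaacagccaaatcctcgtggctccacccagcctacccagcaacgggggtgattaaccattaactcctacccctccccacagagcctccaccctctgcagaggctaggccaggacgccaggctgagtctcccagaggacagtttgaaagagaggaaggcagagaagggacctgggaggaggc
A match of letters describes the window and is not evidence of binding, and a window without one says nothing about more distant elements.

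Library totals ran from 1264563 to 18442730 counts with a median of 11913138. One library stood far below the rest, the formalin 3 mo portion of control 8A with 1264563 counts, against 6257294 in the next lowest. In that library the receptor genes had 10 (Nr0b2) to 1014 (Hnf4a) counts. The hepatocyte markers examined (Alb, Apoa1, Fga, Tat and Cps1) were detected in every group, with summed levels of 56000 to 79800 CPM in PB frozen livers and 75600 to 94700 CPM in Con frozen livers. CPM are counts scaled by library total and the trimmed mean of M values (TMM). The mitochondrial share of counts was 2.43 to 2.91% of the total in group means of frozen, ethanol and formalin 18 h portions and 4.32 to 10.8% in the groups of 3-month formalin material. It also moved with treatment in heat only portions (10.8 ± 3.52% in PB and 5.82 ± 0.897% in Con, SD, n = 6 each).

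Levels of these genes in frozen liver spanned a wide range per exon length. Hnf4a was highest at 132.3 ± 13.7 CPM per kb of exon, followed by Rxra at 87.6 ± 10.6, Nr1h4 at 59.8 ± 6.02 and Nr1h3 at 42.0 ± 2.28 CPM per kb (SD, n = 12 animals). The constitutive regulator and the shared RXR partner were thus the most abundant members. Nr0b2 averaged 31.4 ± 13.6 CPM per kb, Nr1i2 21.7 ± 4.36, Nr5a2 20.6 ± 1.87, Ahr 16.3 ± 7.2 and Nr1i3 12.4 ± 5.17. Within this second group neighbouring ranks did not differ beyond their spread, which takes in PB and Con livers together. Ahr had 22.9 ± 3.17 CPM per kb in PB and 9.8 ± 1.29 in Con, so its place among its neighbours depends on the group. Esr1, the estrogen receptor alpha gene with the longest exon set of the 10, was lowest at 5.14 ± 1.31 CPM per kb. The first 5 ranks (Hnf4a, Rxra, Nr1h4, Nr1h3, Nr0b2) were the same in all 8 states, while ranks 6 to 10 changed places. Exon lengths were those of all annotated exons of a gene together, so a long rarely used exon lowers this value.

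**Figure D1:**
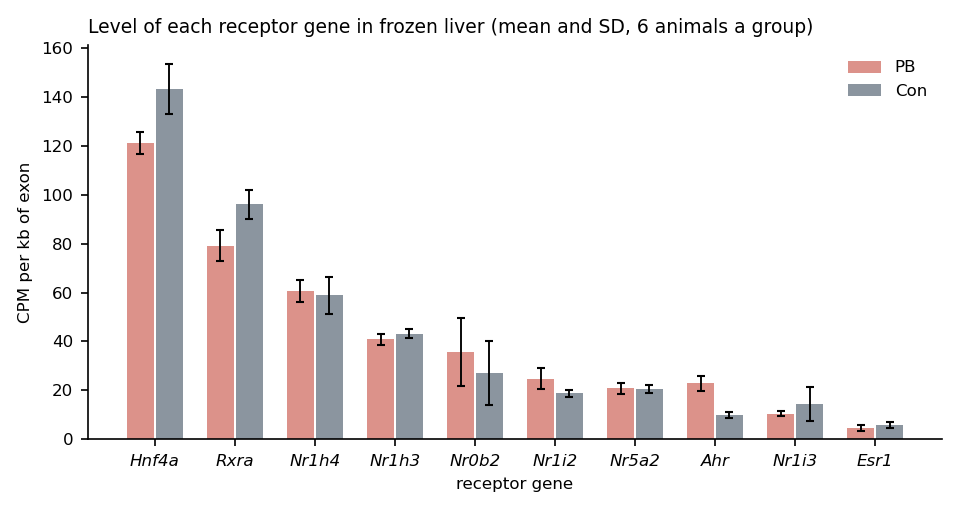
Level of each receptor gene in frozen liver in CPM per kb of exon, for PB (left bar, red) and Con (right bar, grey), with the mean and SD of 6 animals a group. Hnf4a and Rxra stand above the other genes, Esr1 is lowest, and the PB bar of Ahr is higher than its Con bar.

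Whether phenobarbital changed the mRNA of its own sensors was asked within each state by edgeR's quasi-likelihood test, with Benjamini-Hochberg adjustment over all genes tested and a threshold of adjusted p at most 0.05. In frozen liver 4 of the 10 passed: Ahr and Nr1i2 rose, and Rxra and Hnf4a fell. Of all genes tested there, 9.43% passed. The share was 5.89% among risers and 3.53% among fallers. The median log2 fold change of the 10 was -0.03, against -0.01 for all genes tested. Passing genes numbered 3 in ethanol portions (background 6.98%), 2 in formalin 18 h (4.88%), 2 in formalin 3 mo (2.1%), 2 in TAE (3.29%), 1 in heat only (5.03%), 3 in catalyst AllPrep (4.94%) and 3 in catalyst PureLink (4.65%). When the 8 libraries of each mouse were summed, the same 4 genes as in frozen liver passed (background 7.44%). These portions are of whole liver, so fewer cells that express a gene and less of its RNA per cell cannot be told apart.

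**Figure D2:**
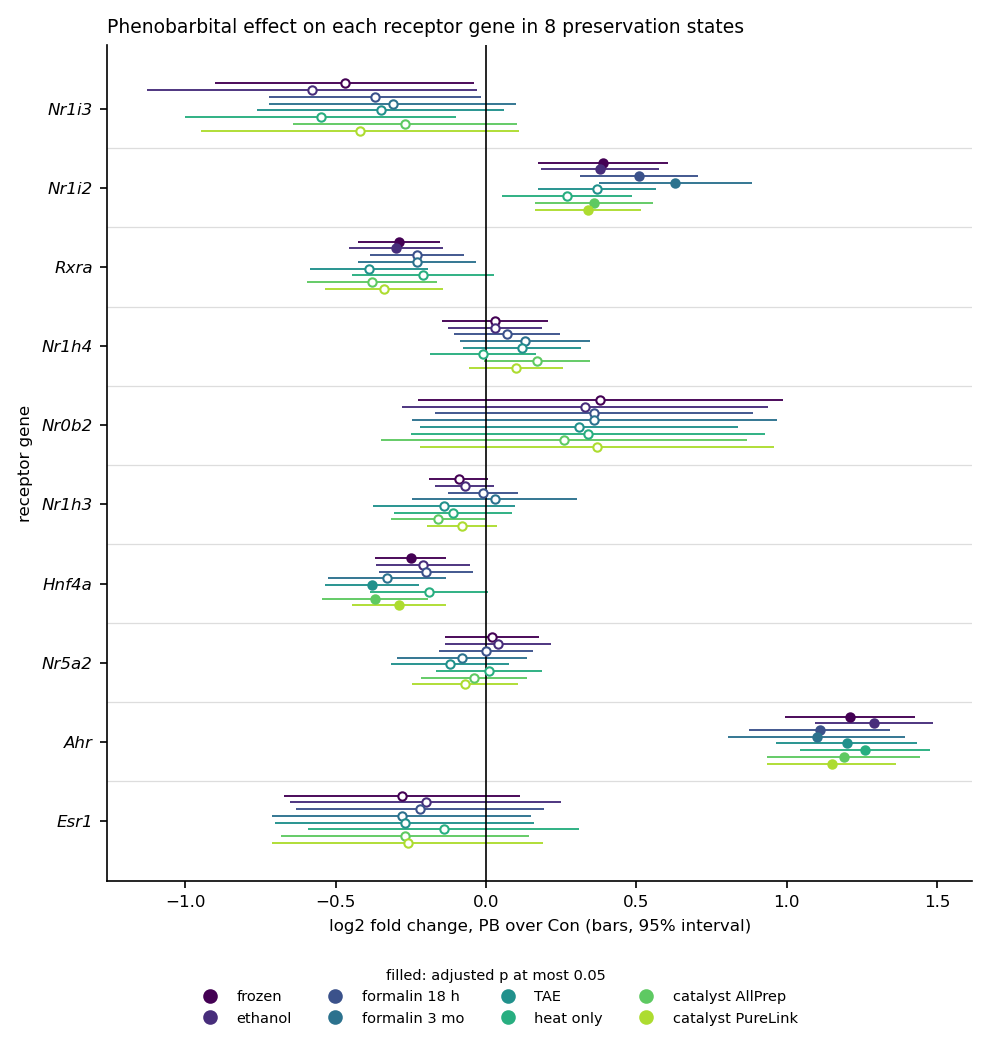
Log2 fold change of PB over Con for each receptor gene in each of the 8 preservation states, with bars of the 95% interval. Filled points passed an adjusted p of 0.05; Ahr lies between 1.10 and 1.29 in every state, Nr1i2 above 0, and Rxra and Hnf4a below 0.

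Ahr had the largest response among the 10 genes and passed in every state. In PB frozen livers it had 103.9 CPM in animal 18B, 135.9 in 20D, 147.9 in 80B, 148.3 in 18D, 149.7 in 75C and 159.3 in 20B, against 50.23 to 71.76 CPM in Con frozen livers (median 60.42). Every PB liver was above every Con liver, and 18B was the lowest of the PB group. The log2 fold change was 1.21 (SE 0.11, adjusted p = 1.04e-05), a 2.32-fold rise. In formalin 3 mo portions PB livers had 114.2 to 210.1 CPM (median 184.7) and Con livers 68.58 to 95.70 CPM (median 77.03), again without overlap. Across all 8 states the log2 fold change lay between 1.10 and 1.29, with adjusted p between 2.85e-06 and 0.000563. PB and Con ranges were separate in 8 of 8 states, as they were for 5.56% of all genes tested in frozen liver, 4.46% in ethanol, 3.76% in formalin 18 h and 2.18% in formalin 3 mo. In the repaired states the share was 2.94% in TAE, 3.43% in heat only, 3.89% in catalyst AllPrep and 3.33% in catalyst PureLink. Of 12761 genes tested in every state, 1.43% passed in all 8, as Ahr did. The call held in each state when any single animal was left out (log2 fold change 1.02 to 1.37).

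Nr1i2, the gene of PXR, rose in 6 of the 8 states. PB frozen livers had 48.78, 56.59, 57.47, 63.40, 73.75 and 77.45 CPM, and Con frozen livers 44.54, 44.55, 45.92, 46.18, 52.51 and 53.09 CPM. Only PB animal 18B fell within the Con range. The log2 fold change was 0.39 (SE 0.11, adjusted p = 0.038), a 1.31-fold rise. It was 0.38 in ethanol portions (adjusted p = 0.0414), 0.51 in formalin 18 h (0.00851), 0.63 in formalin 3 mo (0.0165), 0.36 in catalyst AllPrep (0.0456) and 0.34 in catalyst PureLink (0.0388). The formalin 3 mo groups were the only pair whose ranges did not overlap, at 44.23 to 59.96 CPM in PB and 21.18 to 41.86 CPM in Con. Ranges were separate there for 2.18% of all genes tested. In TAE (0.37, adjusted p = 0.0694) and heat only portions (0.27, adjusted p = 0.173) the test was not passed. Without PB animal 18B both states passed (adjusted p = 0.0235 in TAE and 0.0283 in heat only). The TAE rise was also called by DESeq2 (0.38, adjusted p = 0.0328) and by edgeR with library totals alone (0.41, adjusted p = 0.0494). Of all genes tested in every state, 2.64% passed in 6 or more.

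The Nr1i2 calls of formalin 18 h and formalin 3 mo survived the omission of any animal, and the others did not. In frozen liver the call was lost without Con 8C, 8D, 82B or 90C or PB 20B or 80B (adjusted p of 0.0685 to 0.0872). It was lost in ethanol portions without Con 8C, 8D, 82B or 90C or PB 20B, 20D, 75C or 80B (0.0599 to 0.104). In catalyst AllPrep 10 of the 12 omissions ended it (0.0544 to 0.115), all but those of Con 8A and PB 18B, and so did RLE size factors (0.0545). Without the low-count filter the call was lost in ethanol (0.0536), catalyst PureLink (0.0555) and catalyst AllPrep. With libraries thinned to 1264563 counts Nr1i2 was called in formalin 3 mo alone, and the other 5 calls were lost (0.118 to 0.215). In catalyst PureLink 9 of the 12 omissions ended the call (0.0531 to 0.0983), all but those of Con 21C, PB 18B and PB 75C. In the sums over states it was lost without Con 8D, 82B or 90C or PB 20B or 80B (0.0515 to 0.0643), while the fold change stayed between 0.33 and 0.44.

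Rxra, the common partner of CAR, PXR, FXR and LXR, was lower in PB livers in all 8 states and passed the test in 2. Its PB and Con ranges were separate in 4 of the 8 states, beside 2.18 to 5.56% of all genes tested in each state. PB frozen livers had 383.2 to 479.6 CPM (median 428.5) and Con frozen livers 483.0 to 568.6 CPM (median 521.0). The groups did not overlap, and the closest libraries were PB 18B and Con 21C. The log2 fold change was -0.29 (SE 0.07, adjusted p = 0.0157), and it stayed past the threshold without any single animal. In ethanol portions PB livers had 472.6 to 616.3 CPM (median 540.2) and Con livers 620.9 to 774.5 CPM (median 653.0), a log2 fold change of -0.30 (adjusted p = 0.0399). That call was lost without Con 8A, 82B or 90C or PB 18D, 20B, 20D or 80B (adjusted p of 0.0657 to 0.0904). Elsewhere the log2 fold change was between -0.39 and -0.21 with adjusted p of 0.0559 to 0.385. Catalyst AllPrep portions passed with edgeR without PB 80B (adjusted p = 0.0224). DESeq2 called Rxra in formalin 18 h (adjusted p = 0.0483), TAE (0.00639), catalyst AllPrep (0.0121) and catalyst PureLink (0.0159). For the sums over states it was -0.30 (adjusted p = 0.0362), and the call was lost without Con 8A, 82B or 90C or PB 18D, 20B, 20D or 75C (0.0536 to 0.0833).

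Hnf4a, which encodes a constitutive regulator of hepatocyte genes, was also lower in PB livers in all 8 states and passed in 4. PB frozen livers had 549.8 to 608.1 CPM (median 586.8) and Con frozen livers 628.9 to 765.0 CPM (median 683.8), with no overlap. The log2 fold change was -0.25 (SE 0.06, adjusted p = 0.0210). It was -0.38 in TAE (adjusted p = 0.0197), -0.37 in catalyst AllPrep (0.0216) and -0.29 in catalyst PureLink (0.0495). The other states gave -0.33 to -0.19 with adjusted p of 0.116 to 0.323 by edgeR. DESeq2 called Hnf4a in ethanol (-0.22, adjusted p = 0.0336) and formalin 3 mo (-0.33, adjusted p = 0.00327) as well. The ranges of the groups were separate in 6 of 8 states, beside 2.18 to 5.56% of all genes tested in each state. In the sums over states the log2 fold change was -0.27 (adjusted p = 0.0173), a call that held without any single animal (-0.30 to -0.24).

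Single animals and settings decided some of the Hnf4a calls within states. Without the low-count filter the call was lost in frozen (adjusted p = 0.0739), TAE (0.0667) and catalyst PureLink portions (0.103). With libraries thinned to 1264563 counts none of Nr1i2 (adjusted p = 0.175), Rxra (0.101) and Hnf4a (0.21) passed in frozen liver. The frozen call was lost without Con 8A or 8D (adjusted p of 0.0520 and 0.0521), the TAE call without Con 8A, Con 8D or PB 18D (0.0534 to 0.0583) and the catalyst AllPrep call without Con 8D or PB 18D (0.0537 to 0.0556). In catalyst PureLink 11 of 12 omissions ended the call (0.0576 to 0.115), all but that of PB 18B, and so did library totals alone (-0.25, adjusted p = 0.0868). The noncoding gene Hnf4aos lies on the opposite strand of the Hnf4a locus with 0 bp of shared exon, and its log2 fold change in frozen liver was 0.21 (adjusted p = 0.595).

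The falls of Rxra and Hnf4a stood beside a lower summed level of hepatocyte markers. Their summed level had a median of 62200 CPM in PB frozen livers and 85700 CPM in Con frozen livers, and 1 of 5 markers passed the test. That marker was Tat, tyrosine aminotransferase (779.4 ± 181.0 CPM in PB and 1173 ± 187.0 CPM in Con, log2 fold change -0.60, adjusted p = 0.0219). Alb, which makes up most of that summed level, did not pass (39460 ± 10200 CPM in PB and 56890 ± 8010 CPM in Con, -0.54, adjusted p = 0.0572). The median log2 fold change of the 5 hepatocyte markers in frozen liver was -0.26. No marker of the hepatocyte list was at 0. None of the measured markers of Kupffer (5), sinusoidal endothelial (5), stellate (5), cholangiocyte (3), lymphocyte (1) or erythroid (3) lists passed in frozen liver. At an unadjusted p under 0.05 the lists gave 1, 3, 1, 1, 0 and 0 genes in that order, and the hepatocyte list gave 3 of 5. Of all genes tested in frozen liver, 3424 of 13929 had such a p. These list counts were taken with edgeR alone. In the other comparisons the Kupffer list had a median log2 fold change of 0.21 (formalin 18 h) to 0.46 (formalin 3 mo) in the 7 preserved states, and the hepatocyte list one of -0.65 (heat only) to -0.17 (formalin 18 h). Tat was also called lower in ethanol, TAE, heat only, both catalyst states and the sums (-0.70 to -0.54). Alb was called lower in ethanol (-0.63, adjusted p = 0.0463) and catalyst PureLink (-0.65, adjusted p = 0.045). Lyve1, a marker of sinusoidal endothelium, rose in formalin 3 mo (1.12, adjusted p = 0.0238), TAE (1.17, 0.0228), heat only (1.24, 0.00233) and catalyst AllPrep (0.97, 0.0196), and in the sums over states (0.86, adjusted p = 0.0171). In each of these comparisons the other 4 markers of the endothelial list did not pass. The median log2 fold change of that list there was 0.16 (heat only and the sums) to 0.26 (formalin 3 mo). The Kupffer cell marker Adgre1 rose in catalyst AllPrep (0.84, adjusted p = 0.0264), where the other 4 of its list did not pass. Lyve1 and Adgre1 are named here after their values were seen. Hnf4a was called in TAE, catalyst AllPrep and the sums as well, but not in formalin 3 mo or heat only. In frozen and catalyst PureLink portions Hnf4a was called and Lyve1 was not. The part of cell composition in the falls of Rxra and Hnf4a was not tested.

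**Figure D3:**
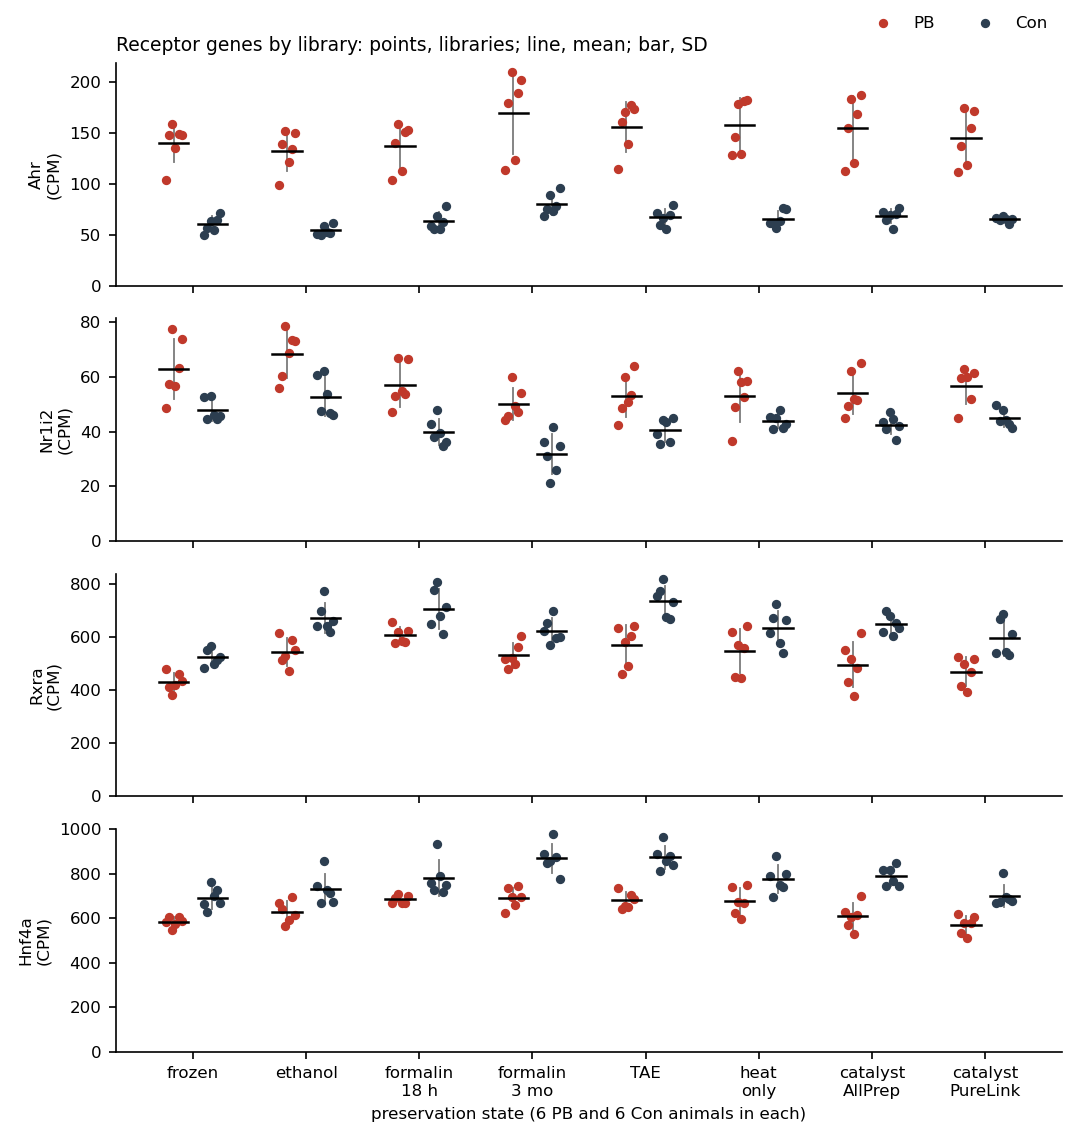
CPM of Ahr, Nr1i2, Rxra and Hnf4a in every library by preservation state, with PB libraries in red on the left and Con libraries in dark grey on the right of each state (line, mean; bar, SD; n = 6 each). Ahr separates the groups in all 8 states, and Hnf4a in 6.

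Nr1i3, the gene of CAR itself, passed in none of the 8 states by edgeR or DESeq2, and 2 states (frozen and heat only) had an unadjusted p under 0.05. PB frozen livers had 40.84, 42.64, 45.31, 47.61, 49.24 and 51.23 CPM. Con frozen livers had 43.14, 47.35, 51.73, 55.47 and 57.00 CPM and, in animal 21C, 125.5 CPM. The groups overlapped, and 21C alone stood far above the rest. The log2 fold change was -0.47 (SE 0.22, adjusted p = 0.202) with all animals and -0.15 (adjusted p = 0.296) without 21C. Over the 8 states it was -0.58 to -0.27 with 21C and -0.27 to -0.08 without it. The sums over states gave -0.45 (95% interval -0.88 to -0.02, adjusted p = 0.258), and -0.17 without 21C. Control 21C averaged 129.3 CPM over its 8 libraries, and the other controls 47.76 to 67.05 CPM.

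Counts of Nr1i3 carry a further limit. Tomm40l, a gene of the mitochondrial import machinery on the opposite strand, shares 3304 bp of the 4414 bp of Nr1i3 exon. Libraries were stranded, but whether counting used strand was not given in the sources used here. Tomm40l had 20365 counts over the 96 libraries, against 69408 for Nr1i3. Its log2 fold change of PB over Con was between -0.13 and 0.16 in the 8 states (adjusted p of 0.497 to 0.988).

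The remaining receptors gave no call in any state by either tool, and none of their fits in the 8 states had an unadjusted p under 0.05. Nr1h4, the bile acid sensor, had 125.8 to 151.1 CPM in PB frozen livers and 104.9 to 156.1 CPM in Con frozen livers, with a log2 fold change in the sums of 0.07 (95% interval -0.08 to 0.22). Nr1h3, the oxysterol sensor, had 94.91 to 109.9 CPM in PB and 103.5 to 117.5 CPM in Con, and -0.09 in the sums (-0.21 to 0.03). Nr5a2, a regulator of bile acid and cholesterol genes, had 100.5 to 137.2 CPM in PB and 102.6 to 129.9 CPM in Con, and -0.02 in the sums (-0.17 to 0.13). All 3 intervals leave out a log2 change of 0.38, the value of Nr1i2 in the sums.

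Nr0b2 and Esr1 varied more between animals of a group than between groups. Nr0b2 had 21.41, 30.25, 35.80, 35.92, 55.88 and 62.67 CPM in PB frozen livers and 15.04, 20.46, 23.67, 30.70, 39.08 and 55.44 CPM in Con frozen livers. The groups overlapped over most of their range. Animal means over the 8 states ran 3.0-fold from lowest to highest in PB and 3.86-fold in Con, and the extremes were the same animals in frozen tissue and in the means (PB 80B and 20D, Con 8A and 8D). In the sums Nr0b2 had a log2 fold change of 0.34 with an interval of -0.25 to 0.92 (adjusted p = 0.553). Esr1 had 40.49 to 81.53 CPM in PB frozen livers (median 67.17) and 42.59 to 87.69 CPM in Con frozen livers (median 82.73). Con 21C was again apart, at 42.59 CPM, against 80.86 to 87.69 CPM in the other 5 controls. Without 21C the log2 fold change of Esr1 in frozen liver was -0.40 (adjusted p = 0.169), against -0.28 (adjusted p = 0.431) with it.

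**Figure D4:**
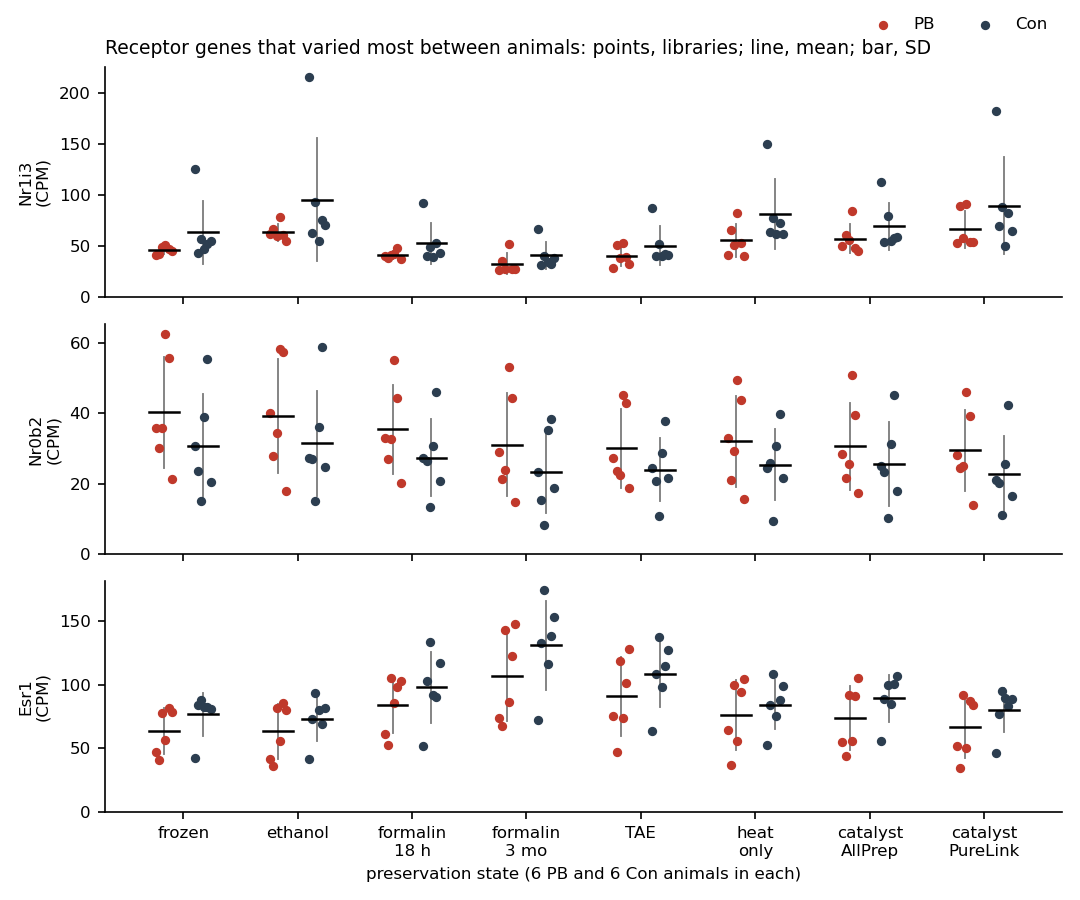
CPM of Nr1i3, Nr0b2 and Esr1 in every library by preservation state, PB in red on the left and Con in dark grey on the right of each state (line, mean; bar, SD; n = 6 each). The single high control point of Nr1i3 in every state is animal 21C, at 125.5 CPM in frozen tissue.

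The PB effect did not differ detectably between a preserved state and frozen tissue for any of the 10 genes. In 70 interaction fits the difference of log2 fold changes was -0.14 to 0.23, with 0 past the adjusted threshold, 0 with an unadjusted p under 0.05 and a smallest unadjusted p of 0.171. Of all genes, 0.0% passed in each of the 7 comparisons. Those at an unadjusted p under 0.05 ran from 170 of 14583 in ethanol to 662 of 14717 in heat only. These fits leave out the pairing of portions of a liver, so they detect a difference less readily, and few small p-values arise. With the animal as a replicate block 0 of the 10 genes passed as well. No other tool was run on these fits. Nr1i2, Rxra and Hnf4a passed in some states and not in others, and no difference between those effects was detected. For Ahr the difference ran from -0.12 to 0.07, and for Nr1i2 from -0.13 in heat only to 0.23 in formalin 3 mo portions.

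Beyond the receptors themselves, gene lists of their pathways were read in frozen liver, as counts beside the backgrounds of 5.89% risers and 3.53% fallers. Of 20 measured CAR and PXR targets, 19 rose, with a median log2 fold change of 2.85. Cyp2b10, the classical CAR target, averaged 2279 ± 411 CPM in PB and 0.198 ± 0.138 CPM in Con. Cyp2c55 averaged 706.4 ± 144 CPM in PB and 1.63 ± 0.704 CPM in Con. Cyp3a11, the classical PXR target, averaged 8712 ± 2730 CPM in PB and 145.8 ± 85.9 CPM in Con. Cyp2c54 averaged 1498 ± 191 CPM in PB and 60.7 ± 35.4 CPM in Con. The target genes thus moved by far more than the mRNA of either receptor. Alas1, the first enzyme of heme synthesis, did not pass (0.95, SE 0.57, adjusted p = 0.330).

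Of 5 measured AHR targets, 3 rose beside Ahr. Cyp1a2 averaged 1260 ± 166 CPM in PB and 412.5 ± 92.1 CPM in Con (log2 fold change 1.60, adjusted p = 7.78e-06) and passed in all 8 states. Nqo1 averaged 5.02 ± 1.96 CPM in PB and 1.74 ± 0.633 CPM in Con (1.52, adjusted p = 0.0047), and Cyp1a1 1.95 ± 0.317 CPM in PB and 0.974 ± 0.398 CPM in Con (0.98, adjusted p = 0.0217). Nqo1 passed in 6 of the 8 states and Cyp1a1 in 4. Tiparp and Cyp1b1, which AHR ligands also induce in many tissues, had log2 fold changes of -0.00 (adjusted p = 0.992) and -0.38 (adjusted p = 0.484). Of the 2 measured AHR partners 0 passed by edgeR and 0 had an unadjusted p under 0.05 (Arnt -0.13, adjusted p = 0.394).

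Among 28 measured other nuclear receptors, 3 rose and 3 fell. The risers were Rarb, a retinoic acid receptor (10.8 ± 2.73 CPM in PB and 5.27 ± 1.32 CPM in Con, log2 fold change 1.02, adjusted p = 0.00575), Pparg (2.57 ± 0.428 CPM in PB and 1.44 ± 0.45 CPM in Con, 0.82, adjusted p = 0.0233) and the orphan receptor Nr6a1 (0.53, adjusted p = 0.00457). Rarb passed in 7 of the 8 states, Nr6a1 in 6 and Pparg in 2. Ppara, the fatty acid sensor, fell to 159.1 ± 30.7 CPM in PB, against 277.8 ± 65.0 CPM in Con (-0.82, adjusted p = 0.005), and passed in all 8 states. Rora (-0.10, adjusted p = 0.488) and the glucocorticoid receptor gene Nr3c1 (-0.06, adjusted p = 0.514) were the most abundant that did not pass.

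Of 16 receptor coregulators 0 rose and 2 fell. Among them was the coactivator gene Ncoa6 (42.9 ± 4.30 CPM in PB and 51.7 ± 4.71 CPM in Con, -0.28, adjusted p = 0.0359). Ncoa6 passed in frozen liver alone and not in the sums over states (adjusted p = 0.112). Of 10 genes of CAR retention and signalling, 1 rose: Rack1, a scaffold protein (293.8 ± 25.8 CPM in PB and 247.9 ± 12.4 CPM in Con, 0.23, adjusted p = 0.0498). Rack1 likewise passed in frozen liver alone and not in the sums (adjusted p = 0.335). Egfr, the receptor through which phenobarbital is known to act on mouse CAR, had a log2 fold change of -0.43 (SE 0.21, adjusted p = 0.238). Of 8 liver transcription factors, 1 fell, Foxa3 (38.1 ± 7.88 CPM in PB and 61.8 ± 8.32 CPM in Con, -0.71, adjusted p = 0.00316), which passed in all 8 states. Cebpa (-0.10) and Prox1 (-0.43, adjusted p = 0.197) did not pass.

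Target lists of FXR, SHP, LXR and HNF4A were read in frozen liver in the same way. Of 8 measured FXR and SHP targets, 0 passed by edgeR and 3 had an unadjusted p under 0.05, beside 3424 of 13929 among all genes tested. Abcb11, the bile salt export pump, was at 0.07 (adjusted p = 0.555) and Slc27a5, a bile acid ligase, at 0.02 (adjusted p = 0.890). Of 9 LXR targets 2 fell, the desaturase gene Scd1 (4765 ± 2630 CPM in PB and 11830 ± 3570 CPM in Con, -1.33, adjusted p = 0.0376) and the sterol transporter gene Abcg8 (-0.36, adjusted p = 0.0286), while Abca1 and Srebf1 did not pass (-0.17 and -0.08). Scd1 passed in 3 of the 8 states and Abcg8 in frozen liver alone. In the sums over states neither passed (adjusted p of 0.0531 and 0.0869), while Abca1 did (-0.21, adjusted p = 0.0412). Of 9 HNF4A targets 1 rose, Mttp (646.1 ± 58.8 CPM in PB and 521.6 ± 24.5 CPM in Con, 0.30, adjusted p = 0.0136), and 1 fell. Mttp passed in 2 of the 8 states and in the sums (adjusted p = 0.0437). Apob (-0.08) and Ttr (-0.32, adjusted p = 0.194) did not pass. The lists hold genes that several of these receptors share, so their counts do not sort the receptors from each other.

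Genes whose level followed the 2 xenobiotic sensors across libraries were ranked by Pearson correlation of log2 CPM after the mean of each state was removed, among 13545 genes. The 96 libraries come from 12 animals and share the treatment groups, so the values are descriptions without a p. Nearest to Nr1i3 were Slc27a2, a very long chain acyl-CoA synthetase (r = 0.864), the lipid droplet gene Plin2 (0.826) and Vwa8 (0.810). Plin2 averaged 289.0 ± 38.8 CPM in PB frozen livers and 494.0 ± 217 CPM in Con frozen livers. Control 21C averaged 129.3 CPM of Nr1i3 over its 8 libraries, and no other animal more than 67.05 CPM. The ranking for Nr1i3 was not run without 21C, so the part of that animal in it was not tested. Nearest to Nr1i2 were the mitotic cyclin gene Ccnb2 (0.844), Adssl1 (0.843), a muscle-type adenylosuccinate synthase, and Cbr1, a carbonyl reductase (0.842). The means of the treatment groups were not removed and Nr1i2 itself was higher in PB, so this ranking favours genes that differ between PB and Con. In frozen liver these 3 had log2 fold changes of 2.14, 0.98 and 0.76 with PB, which are no separate finding.

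Preservation changed the measured level of these genes as well. Each preserved state was compared with frozen tissue in a fit with treatment as covariate, and all 7 comparisons share the frozen libraries. Passing genes numbered 2 of 10 in ethanol (background 32.8%), 4 in formalin 18 h (41.1%), 8 in formalin 3 mo (60.5%), 6 in TAE (59.0%), 4 in heat only (57.0%), 3 in catalyst AllPrep (50.4%) and 3 in catalyst PureLink (59.2%). In this fit the share was close to the background in TAE, above it in formalin 3 mo and below it in the other 5 states. With each animal as a replicate block, which uses the pairing of portions, the numbers were 7 in ethanol (background in the same fit 53.0%), 8 in formalin 18 h (57.9%), 10 in formalin 3 mo (66.0%), 9 in TAE (68.9%), 8 in heat only (66.8%), 8 in catalyst AllPrep (63.2%) and 6 in catalyst PureLink (71.2%). With the block the share was below its background in catalyst PureLink and above it in the other 6 states. The side of the background thus changed with the fit in ethanol, formalin 18 h, heat only and catalyst AllPrep. Shares of 10 genes are coarse, were not tested against the background, and are not read as a result about these genes. The values by gene that follow are from the fit without the block unless the block is named. The mitochondrial share given above moved with state as well, and its part in these differences was not tested.

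Rxra was the one member above frozen in all 7 states, by log2 0.47 in TAE (SE 0.06, adjusted p = 2.87e-07) and 0.46 in formalin 18 h (SE 0.05, adjusted p = 8e-08) at the top and 0.16 in catalyst PureLink (SE 0.06, adjusted p = 0.0164) at the bottom. It averaged 658.5 ± 76.0 CPM in formalin 18 h portions and 478.4 ± 57.9 CPM in frozen portions (SD, n = 12 each), and was higher in 12 of 12 animals. Without Con 90C the catalyst PureLink difference did not pass (adjusted p = 0.0686). Hnf4a was higher in 5 states, by 0.14 to 0.32, with 782.0 ± 107 CPM in formalin 3 mo portions and 638.7 ± 66.3 CPM in frozen portions. Its catalyst AllPrep difference did not pass without Con 21C (adjusted p = 0.0595). Neither ethanol (0.12, adjusted p = 0.0506) nor catalyst PureLink (-0.00, adjusted p = 0.966) passed for Hnf4a, although ethanol did with the block (0.11, adjusted p = 0.00024).

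Nr1h3 went the other way. It averaged 64.4 ± 11.6 CPM in formalin 3 mo portions and 105.5 ± 5.73 CPM in frozen portions, a log2 fold change of -0.67 (SE 0.08, adjusted p = 2.65e-08), and was lower in 12 of 12 animals. The 4 repaired states gave -0.42 to -0.32 and all passed, while ethanol and formalin 18 h gave -0.00 and -0.06 and did not. Nr1i2 was lower in formalin 3 mo (-0.41, adjusted p = 0.00026), TAE (-0.22), heat only (-0.20) and formalin 18 h (-0.20). The formalin 18 h call was lost without any one of Con 8C, 8D, 21C, 82B or 90C (adjusted p of 0.0515 to 0.0585), and the heat only call without Con 8A or PB 75C (0.0534 to 0.0602). Nr1h4 was lower in formalin 18 h (-0.26), formalin 3 mo (-0.38) and TAE (-0.39, adjusted p = 1.28e-05), with 104.1 ± 12.5 CPM in TAE portions and 137.7 ± 13.9 CPM in frozen portions.

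Nr1i3 moved in both directions. It was higher in ethanol (79.7 ± 44.5 CPM in ethanol and 54.8 ± 22.8 CPM in frozen portions, log2 0.55, SE 0.19, adjusted p = 0.0248) and catalyst PureLink (0.52, adjusted p = 0.0169), each in 12 of 12 animals, and lower in formalin 3 mo (36.8 ± 11.9 CPM, -0.53, adjusted p = 0.00469), in 11 of 12. Without PB 18D the ethanol difference had an adjusted p of 0.0507. The overlapping gene Tomm40l was higher in formalin 3 mo by 0.29 (adjusted p = 0.00972) and in ethanol by 0.25 (adjusted p = 0.000978), and did not pass in catalyst PureLink (-0.04). Esr1 was higher in formalin 3 mo (0.78, adjusted p = 0.000115; 119.2 ± 36.0 CPM against 70.2 ± 17.9 CPM in frozen portions) and in TAE (0.52, adjusted p = 0.00624). Ahr passed in formalin 3 mo alone (0.36, adjusted p = 0.0021). Nr0b2 (-0.43 to 0.02, adjusted p of 0.104 to 0.954) and Nr5a2 (-0.10 to 0.15, adjusted p of 0.0687 to 0.953) passed in none of the 7 states.

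With the animal as replicate block no call was lost against frozen, and 8 of the 10 genes gained calls. Nr0b2 was then lower in 6 of 7 states, all but ethanol, by -0.43 to -0.16 (adjusted p of 3.53e-10 to 0.000841). Nr5a2 passed in 3, with -0.11 in ethanol (adjusted p = 0.000266), -0.08 in formalin 18 h (0.00902) and 0.14 in formalin 3 mo (0.00885). Nr1i3 and Nr1i2 passed in all 7. Nr1i3 was then also higher in heat only (0.29) and catalyst AllPrep (0.25) and lower in formalin 18 h (-0.21) and TAE (-0.24). Nr1i2 was higher in ethanol (0.16, adjusted p = 6.8e-05) and lower in the other 6. Ahr passed in 5 states, lower in ethanol (-0.09, adjusted p = 0.00864) and higher in the other 4. Esr1 was higher in 5 (0.16 to 0.77), and Nr1h4 was also higher in ethanol (0.08, adjusted p = 0.00291) and catalyst PureLink (0.10, adjusted p = 0.00357).

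**Figure D5:**
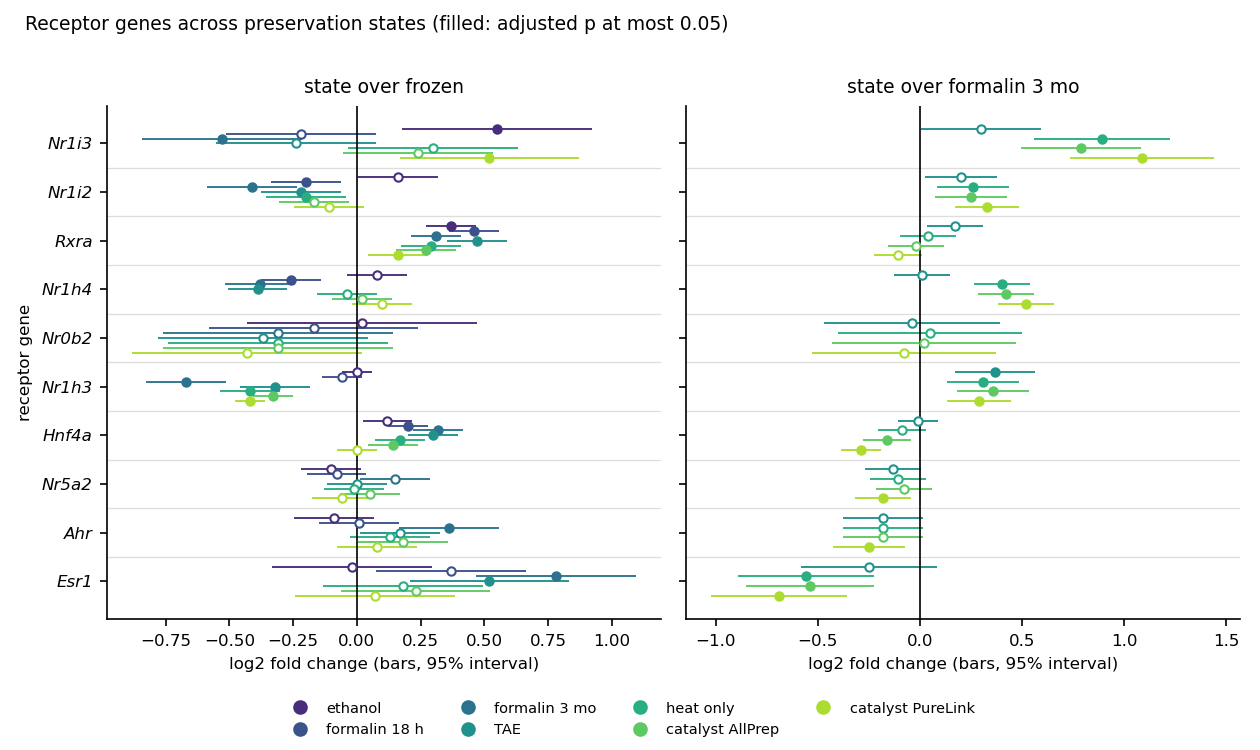
Log2 fold change of each receptor gene in each preserved state over frozen tissue (left panel) and in each repair treatment over untreated 3-month formalin (right panel), with bars of the 95% interval; filled points passed an adjusted p of 0.05. Rxra lies above 0 in all 7 states at left, and Nr1i3 and Nr1h4 lie above 0 in the heat only and catalyst states at right.

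The repair treatments were also set against untreated formalin 3 mo portions of the same livers, which all 4 comparisons share. The isolation kit of those untreated portions is not given in the sources used here. A difference of kit can therefore not be told apart from the repair treatment in the heat only and catalyst comparisons. In TAE 1 of 10 passed (background 17.3%), in heat only 5 (46.8%), in catalyst AllPrep 6 (47.4%) and in catalyst PureLink 8 (59.8%). With the animal as a replicate block the numbers were 7 in TAE (background in the same fit 34.5%), 6 in heat only (55.9%), 7 in catalyst AllPrep (57.8%) and 9 in catalyst PureLink (66.7%). The 6 calls that TAE gained were of Nr1i3 (0.30, adjusted p = 0.000124), Nr1i2 (0.19), Rxra (0.17), Nr5a2 (-0.13), Ahr (-0.16) and Esr1 (-0.25). Nr1i3 averaged 78.1 ± 36.4 CPM in catalyst PureLink, 63.5 ± 19.4 in catalyst AllPrep and 68.6 ± 28.9 in heat only, against 36.8 ± 11.9 CPM in formalin 3 mo portions. The log2 fold changes were 1.09 (adjusted p = 1.11e-05), 0.79 (9.92e-05) and 0.89 (0.000101), each higher in 12 of 12 animals, and 0.30 in TAE did not pass without the block (adjusted p = 0.177). Nr1h4 followed with 0.52, 0.42 and 0.40 in the same 3 states, again in 12 of 12 animals, and 0.01 in TAE. Heat only portions had no organocatalyst, and catalyst AllPrep was not tested against heat only here.

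Nr1h3 was higher in all 4 repair treatments, by 0.29 to 0.37 (adjusted p of 0.00118 to 0.00971). Nr1i2 was higher by 0.26, 0.25 and 0.33 in heat only, catalyst AllPrep and catalyst PureLink. Its heat only call was lost without Con 8A or 8D (adjusted p of 0.0519 to 0.0555) and its catalyst AllPrep call without Con 8A (0.0521). Esr1 was lower by 0.56, 0.54 and 0.69 on the log2 scale in the same 3 states. Hnf4a was lower in catalyst AllPrep (-0.16, adjusted p = 0.0198) and catalyst PureLink (-0.29, adjusted p = 6.29e-05), and the catalyst AllPrep call was lost without Con 8C or PB 18D (0.0510 to 0.0537). Nr5a2 (-0.18, adjusted p = 0.0299) and Ahr (-0.25, adjusted p = 0.0231) were lower in catalyst PureLink. The Nr5a2 call was lost without Con 82B, Con 90C, PB 18D, PB 20B or PB 80B (0.0508 to 0.0908), and the Ahr call without Con 90C or PB 18D (0.05 to 0.057).

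Scaling bears on the state comparisons. With library totals alone in place of the trimmed mean, the median of all genes moved by 0.04 to 0.27 against frozen and by 0.16 to 0.20 against formalin 3 mo, upward in each. Under it Nr1i2 was no longer lower in TAE (0.007, adjusted p = 0.940) or heat only portions (0.06, adjusted p = 0.511), and Nr5a2 was no longer lower in catalyst PureLink than in formalin 3 mo (0.02, adjusted p = 0.808). Against frozen, Nr1i2 (-0.02, adjusted p = 0.809) and Nr1h4 in formalin 18 h (-0.08, adjusted p = 0.361) and Nr1h3 in TAE (-0.09, adjusted p = 0.179) kept their sign and lost the call. Against formalin 3 mo the call was lost for Esr1 in heat only (-0.38, adjusted p = 0.0536), for Hnf4a in catalyst AllPrep (-0.004, adjusted p = 0.958) and catalyst PureLink (-0.09, adjusted p = 0.160), and for Ahr in catalyst PureLink (-0.05, adjusted p = 0.626). Rxra stayed above frozen in all 7 states, and Nr1i3 above formalin 3 mo in the heat only and catalyst states, under every alternative run, although the Rxra call in catalyst PureLink was lost without the low-count filter (0.14, adjusted p = 0.0836).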

How the data were processed

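Per the labels' protocols, ribosomal-RNA-depleted stranded libraries were sequenced from 96 liver RNAs. The submitters' processing notes name CASAVA, STAR 2.5, edgeR and the builds GRCm38 and mm10. The authors deposited raw counts per gene; whether strand was used in counting is not given in the sources used here. Of 47465 lines, 92 spike-in lines with 110 counts were left out. Gene positions came from GENCODE M21, which matched 46954 of 47373 genes.

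Counts were tested with edgeR 4.0.16 (R 4.3.3): TMM scaling, filterByExpr, quasi-likelihood F test, Benjamini-Hochberg adjustment over all genes tested, threshold 0.05. Each SE was derived from the fold change and its F statistic, and 95% intervals span 1.96 SE on each side. These intervals are approximate and narrower than the F test implies. An interval can therefore exclude no change where the unadjusted p is above 0.05. CPM levels use one TMM scaling over the 96 libraries. States were compared with treatment as covariate. The method was tested on simulated data, with changes larger than those of Nr1i2, Rxra and Hnf4a in frozen liver. That test does not bear on changes of their size. Alternatives were RLE or library-total scaling, no low-count filter, DESeq2 1.42.0, limma 3.58.1 on log2 CPM with a pseudocount of 0.5 CPM for the sums, thinning to 1264563 counts, the animal as replicate block and the omission of each animal.

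Titles name the animal, so libraries of a mouse are paired across states: same-animal deviations correlated above 0.1 in 336 of 336 pairs (lowest 0.108, median 0.484), against a median of -0.0878 between animals, over 15641 genes. The members and lists were chosen with earlier results of these data known, and the comparisons with formalin 3 mo were added after the data were seen. All 10 members are named; from each list up to 4 genes that passed in frozen liver, by size of change, and up to 2 that did not, by mean CPM; and for Nr1i3 and Nr1i2 the 3 genes of highest correlation. Some genes that this rule names are not reported here.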

Additional observations from a re-analysis of the deposited data

Results flagged for a closer look

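In 17 of 160 groups of 6 libraries (10.6%), the highest or lowest library stood further from the others than Dixon's criterion allows (gap over range above 0.625), where chance gives about 1 in 20. The 16 groups of a gene share 12 animals, so these are not independent.

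Of the 17, 7 were Nr1i3 in control 21C, always the highest. It had 125.5 CPM in frozen tissue (other controls 43.14 to 57.0), 216.3 in ethanol (54.68 to 93.25) and 92.14 in formalin 18 h (38.9 to 53.07). In formalin 3 mo it had 66.96 CPM (31.38 to 40.67), in TAE 87.74 (40.21 to 51.84), in heat only 150.4 (61.42 to 77.9) and in catalyst PureLink 182.8 (49.89 to 87.9). The same animal was lowest for Esr1 in frozen tissue, at 42.59 CPM (80.86 to 87.69), and in catalyst PureLink, at 46.56 CPM (77.35 to 95.1). Nr1i3 was also high in PB 20D in formalin 3 mo, at 52.01 CPM (other PB livers 26.71 to 35.46).

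Hnf4a was high in control 8A, at 935.1 CPM in formalin 18 h (719.7 to 791.7) and 802.6 CPM in catalyst PureLink (668.2 to 695.3). Nr5a2 was low in PB 18B, at 94.68 CPM in formalin 18 h (116.4 to 125.0) and 90.85 CPM in formalin 3 mo (129.2 to 140.8), and in control 8C in frozen tissue, at 102.6 CPM (120.5 to 129.9). Nr1h3 was low in PB 18D in formalin 3 mo, at 39.2 CPM (64.26 to 73.99), and high in control 90C in formalin 18 h, at 108.7 CPM (97.84 to 101.8).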

How the results depend on the processing

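Ahr kept its direction and call in every state under every alternative run. Thinning every library to 1264563 counts left 1 gene past the threshold in frozen, ethanol, formalin 18 h, TAE, catalyst AllPrep and catalyst PureLink, and no low-count filter left 1 in ethanol, TAE and catalyst PureLink. DESeq2 called 4 in TAE. With one animal left out, the number called in PB against Con ranged from 2 to 4 in frozen and in the sums, 1 to 3 in ethanol, TAE, catalyst AllPrep and catalyst PureLink, and 1 to 2 in heat only; it stayed at 2 in formalin 18 h and formalin 3 mo. Against frozen, library totals alone gave 6 in ethanol and 8 in heat only, catalyst AllPrep and catalyst PureLink. The replicate block gave 7 in ethanol, 8 in formalin 18 h, heat only and catalyst AllPrep, and 6 in catalyst PureLink. Omissions gave 1 to 3 in ethanol, 3 to 5 in formalin 18 h, heat only and catalyst AllPrep, 6 to 7 in TAE and 2 to 3 in catalyst PureLink. Against formalin 3 mo, TAE had 5 by library totals, 2 by DESeq2, 7 with the replicate block and 1 to 2 with an animal left out, and catalyst PureLink had 5 by library totals and 6 to 8 with an animal left out. Under the replicate block 0 of the 10 genes had a PB effect that differed from that in frozen liver. Over all genes that fit called 9 of 14717 (0.0612%) in heat only and 0 in the other 6 states.

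Reversals among called genes were Nr1i2 against frozen in TAE (0.007) and heat only (0.06) and Nr5a2 in catalyst PureLink against formalin 3 mo (0.02), all with library totals alone. The other reversals were PB effects near 0 that passed no test. By thinning, Nr1h4 was -0.05 in frozen and 0.04 in heat only, Nr1h3 0.007 in frozen, and Nr5a2 -0.03 in formalin 18 h, 0.007 in catalyst AllPrep and 0.05 in catalyst PureLink. By library totals, Nr1h3 was 0.004 in formalin 18 h, and Nr5a2 0.03 in catalyst AllPrep and 0.001 in the sums; without the filter Nr1h3 was 0.002 in formalin 18 h. With an animal left out, Nr1h4 ranged from -0.03 to 0.09 in frozen, -0.03 to 0.07 in ethanol, -0.004 to 0.11 in formalin 18 h and -0.07 to 0.03 in heat only. Nr1h3 ranged from -0.04 to 0.03 in formalin 18 h and -0.02 to 0.14 in formalin 3 mo. Nr5a2 ranged from -0.03 to 0.08 in frozen, -0.01 to 0.10 in ethanol, -0.04 to 0.06 in formalin 18 h, -0.12 to 0.009 in formalin 3 mo, -0.02 to 0.05 in heat only, -0.10 to 0.003 in catalyst AllPrep and -0.07 to 0.03 in the sums. The causes were not tested.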
